A study of Mus musculus with 12 samples.

Results

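The cytotoxic granule genes are 10 genes taken by symbol, Gzma, Gzmb, Gzmc, Gzmk, Gzmm, Prf1, Nkg7, Fasl, Serpinb9 and Ctsw, out of 50600 gene IDs counted in the series. The rule names the genes and uses no threshold on a measured value, although they were listed with earlier results of these data known. Of the 10, 8 passed the filter on low counts, and Gzmc and Gzmk did not, so they are given by level only. RNA from 12 mice on a mixed C57Bl/6xSV/129 background was sequenced, 3 mice in each of 4 groups. Ctrl thymocytes came from males with the genotype DNMT1 fl/fl and no Cre, aged 25, 21 and 20 wk. KO thymocytes came from DNMT1 fl/fl CD4-CRE mice aged 20, 20 and 21 wk, of which KO2 was the only female of the 12. ALK samples were T cell lymphoma cells of NPM-ALK+ males aged 24, 22 and 31 wk, and ALKKO samples were thymocytes of males with NPM-ALK+, DNMT1 fl/fl CD4-CRE, aged 25, 21 and 19 wk. NPM-ALK, a human fusion tyrosine kinase, and Cre were both driven by Cd4 regulatory elements, so both act in T-lineage cells of an otherwise normal host. ALK carried no floxed Dnmt1 allele by its label, and ALK and Ctrl also differ in tissue, tumor against thymus.

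Cytotoxic lymphocytes kill with granules that fuse with the membrane facing a target cell. Perforin opens the target membrane and granzymes, a family of serine proteases, enter and cleave proteins inside. Fas ligand kills by another route, through the receptor Fas. Most thymocytes are immature and hold few such granules, whereas NK cells, mature CD8 T cells and some innate-like T cells are rich in them, and human ALK-positive lymphomas are known to carry granzyme B and perforin protein in many cases.

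The RNA was taken from homogenized tissue, so a lower level can reflect fewer cells of a type or less RNA per cell, and these cannot be told apart. Levels are CPM, a gene's share of the reads counted on genes after TMM scaling, taken from 12473857 to 18864327 reads per library on genes, and 3 counts equal 0.159 to 0.2405 CPM. Dnmt1 was at 205 to 244 CPM in the 6 deleted libraries and at 378 to 787 CPM in the other 6, and Alk was at 34.8 to 54.9 CPM in the 6 NPM-ALK libraries and at most at 0.431 CPM in the rest. Rag1 had no read in any library, Ctrl included, whereas Cd4 (1290 to 1410 CPM) and Cd8b1 (1340 to 1690 CPM) were high in Ctrl, and in ALK they were at 27.4 to 116 and at 7.23 to 28.7 CPM. The 10 T-lineage markers in ALK were uneven: Cd3e was at 308 to 398 CPM, under its 416 to 587 CPM in Ctrl, Cd3d was at 212, 2.26 and 13.5 CPM against 392 to 468 CPM, Cd5 was at 0.784 to 2.21 CPM against 230 to 275 CPM, and Cd2 was at 1.88 CPM in ALK1 but at 393 CPM in ALK2 and ALK3. The library KO2 stood apart: its 5 B-cell markers summed to 1830 CPM, against 40.4 to 81.5 CPM in Ctrl, KO1 and KO3, its 7 macrophage markers to 2670 CPM against 638 to 972 CPM, and its 10 markers of double-positive thymocytes to 2440 CPM against 6490 to 7550 CPM. Main fold changes of the members that involve KO are therefore given with and without KO2. Interaction values of genes outside the 10 are given with KO2 only.

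In the lymphoma cells, Gzma was higher and Gzmb and Fasl were lower than in Ctrl, and in ALKKO thymocytes Gzma was above every Ctrl and KO mouse but passed edgeR's threshold only in some settings. The Gzma call in ALK was likewise lost in several settings. The windows around the start sites of these 3 genes are shown because they are the members with a call in any comparison. Each is the RefSeq promoter window on GRCm38, the assembly also called mm10, from 250 bases before to 50 after the start site, read 5′ to 3′ on the gene's own strand, which is the minus strand for all 3. Capitals mark matches on either strand to 4 motifs: STAT (TTCNNNGAA), AP-1 (TGANTCA), RUNX (TGTGGT) and CRE (TGACGTCA).
Gzma, chr13:113100932-113101231: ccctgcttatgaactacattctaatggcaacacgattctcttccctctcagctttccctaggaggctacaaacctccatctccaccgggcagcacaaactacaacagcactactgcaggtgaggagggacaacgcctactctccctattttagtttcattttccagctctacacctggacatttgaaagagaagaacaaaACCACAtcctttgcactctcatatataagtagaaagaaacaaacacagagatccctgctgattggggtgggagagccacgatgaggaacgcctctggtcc
Gzmb, chr14:56262285-56262584: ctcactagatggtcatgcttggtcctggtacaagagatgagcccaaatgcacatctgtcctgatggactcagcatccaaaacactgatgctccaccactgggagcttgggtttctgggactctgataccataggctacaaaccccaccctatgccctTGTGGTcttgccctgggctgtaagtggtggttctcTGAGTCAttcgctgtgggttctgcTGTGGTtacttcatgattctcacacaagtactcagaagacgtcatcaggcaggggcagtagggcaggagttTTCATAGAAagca
Fasl, chr1:161788446-161788745: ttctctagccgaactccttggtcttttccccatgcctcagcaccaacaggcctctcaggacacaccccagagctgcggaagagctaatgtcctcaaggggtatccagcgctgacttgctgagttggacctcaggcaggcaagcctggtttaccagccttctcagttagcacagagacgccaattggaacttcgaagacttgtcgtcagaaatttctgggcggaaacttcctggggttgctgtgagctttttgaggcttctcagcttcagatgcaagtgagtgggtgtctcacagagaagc

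The Gzma window held 1 RUNX match and none of the other 3 motifs. The Gzmb window held 2 RUNX matches, 1 AP-1 match and 1 STAT match, and the Fasl window held none. For Gzmb the RefSeq start site differs from the gene coordinates given below (56258838 to 56262260). All of its window, with the STAT match, lies upstream of those coordinates. These motifs are common: of 32851 promoter windows of the same length in the table, 16.8% held the RUNX motif, 7.81% AP-1, 8.3% STAT and 1.79% CRE. Windows were listed for 9 of the 10 genes, all but Ctsw. The 3 windows held 5, 2 and 7 CpG sites in the order printed, beside a median of 7 over all windows.

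Gzma encodes granzyme A, a protease with trypsin-like specificity, and was the most abundant member per length in every group. The gene lies on chromosome 13 (113093825 to 113100981, minus strand), with Gzmk 70626 bases away and no other coding gene between them. Gzma was at 44.8, 58.7 and 47.9 CPM in Ctrl and at 53.7, 43.0 and 57.3 CPM in KO. It was at 110, 64.8 and 436.2 CPM in ALK and at 377, 337 and 259 CPM in ALKKO. All 6 NPM-ALK libraries were thus above all 6 libraries without the transgene, an order found for 1 of the 8 members and for 0.449% of the 16052 genes tested. The ALK mice did not resemble each other: ALK2 was just above the highest Ctrl mouse, and ALK3, from the oldest mouse, was above every ALKKO mouse.

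**Figure D1:**
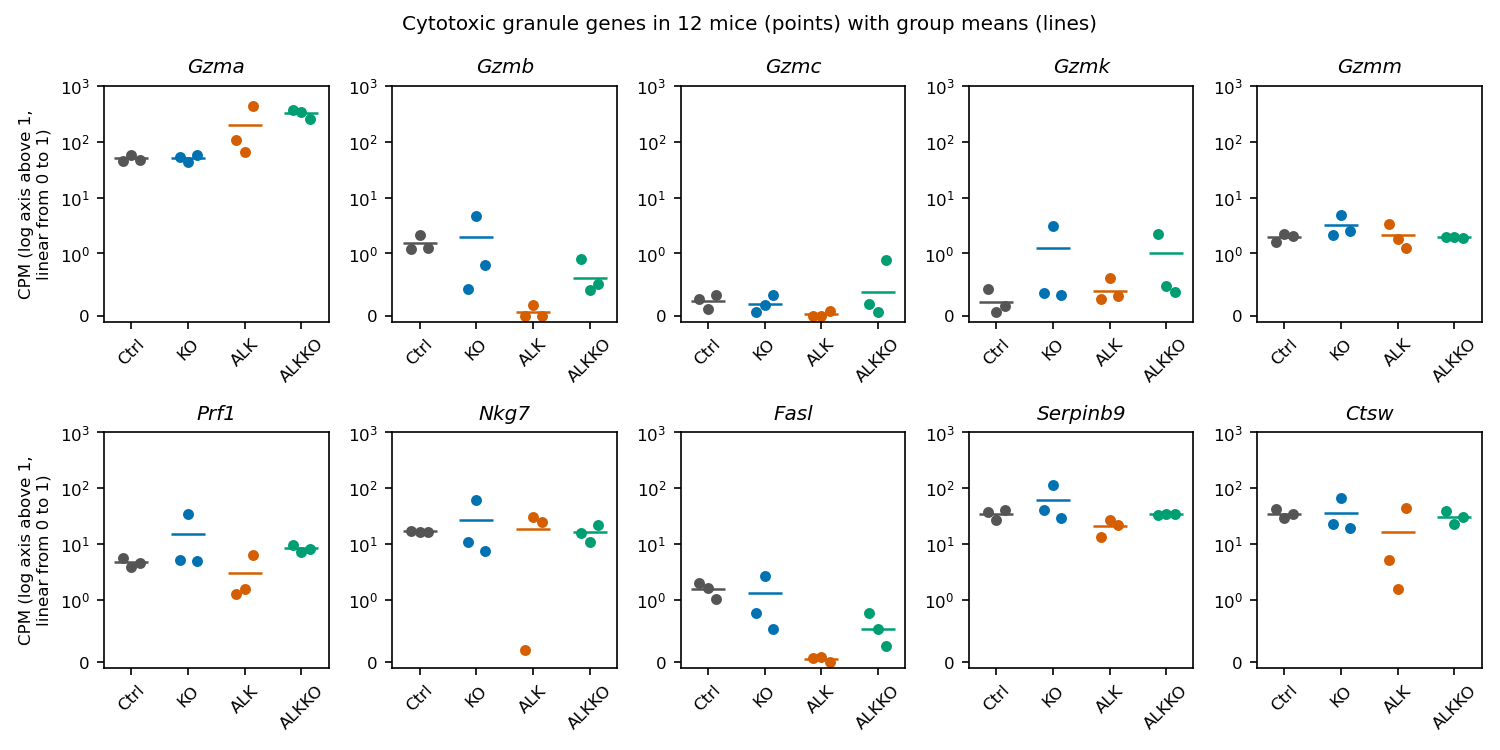
CPM of each of the 10 genes (y axis, linear from 0 to 1 and logarithmic above) in the 3 mice of Ctrl, KO, ALK and ALKKO, with points for mice and lines for group means. Gzma is at 43.0 to 58.7 CPM in Ctrl and KO and at 64.8 to 436.2 CPM in ALK and ALKKO, Gzmb and Fasl are lowest in ALK, and KO2 is the high KO point of Prf1, Nkg7 and Serpinb9.

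Against Ctrl (50.4 ± 7.31 CPM, SD, n = 3), the ALK mean was 204 ± 203 CPM (SD, n = 3), and the fitted log2 fold change of Gzma was 2.01 ± 0.56 (SE; edgeR quasi-likelihood test, adjusted p = 0.0228). The rise was called at an adjusted p under 0.05 with a log2 fold change above 1. Without ALK3 the log2 fold change was 0.78 (edgeR, adjusted p = 0.037), under the fold threshold. The call was also lost with labelled age as a covariate (0.79, adjusted p = 0.196), with only the 2 groups in the fit (2.0, adjusted p = 0.0838) and without any single Ctrl mouse (adjusted p = 0.0595 to 0.0831). ALK3 was aged 31 wk and the other mice 19 to 25 wk. The age term and the removal of ALK3 are therefore not separate checks.

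In ALKKO the Gzma mean was 325 ± 59.8 CPM (SD, n = 3). Its log2 fold change was 2.69 ± 0.58 against Ctrl (SE; edgeR, adjusted p = 0.199), 2.66 ± 0.58 against KO (adjusted p = 1) and 2.67 ± 0.45 against Ctrl and KO together (adjusted p = 0.0617). Without KO2 the values against KO and against both groups were 2.55 (adjusted p = 1) and 2.62 (adjusted p = 0.133). None of these passed edgeR's adjusted threshold over all genes, although the unadjusted p-values were 0.000782, 0.000837 and 0.000123. DESeq2 called all 3, with adjusted p = 0.000463, 0.00358 and 1.66e-05. An exact two-sided permutation test of CPM, 3 ALKKO against 6 Ctrl and KO mice, gave p = 0.0238, the smallest this design can give, and 1 of 10 members reached it. Libraries of these groups did not overlap for 1 of the 8 members tested, Gzma, beside 2.47% of all genes. With 3 mice against 3 the smallest exact p is 0.1. Leaving out ALK3, a library of neither side of these comparisons, turned all 3 into calls, in a fit of 16571 genes in place of 16052 (edgeR, adjusted p = 0.00299, 0.00624 and 0.00069), and leaving out ALK1 or ALK2 did so for the last of them (adjusted p = 0.0478 and 0.0194).

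KO did not differ from Ctrl in Gzma beyond the spread, with a mean of 51.3 ± 7.45 CPM (SD, n = 3) and a log2 fold change of 0.03 ± 0.54 (SE; edgeR, adjusted p = 0.995), or 0.14 without KO2 (adjusted p = 1). The direct comparison of ALK with ALKKO gave -0.67 ± 0.54 (SE; edgeR, adjusted p = 0.38). Without ALK3 this was -1.90 (edgeR, adjusted p = 0.00134), a call, and with labelled age it was also -1.90 (adjusted p = 0.0163). As ALK3 was the oldest mouse, these settings are not separate checks. The interaction, the NPM-ALK difference without the deletion minus that with it, was -0.65 ± 0.77 (SE; edgeR, adjusted p = 0.628), -1.89 (adjusted p = 0.00886) without ALK3 and -0.57 (adjusted p = 0.706) without KO2.

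**Figure D2:**
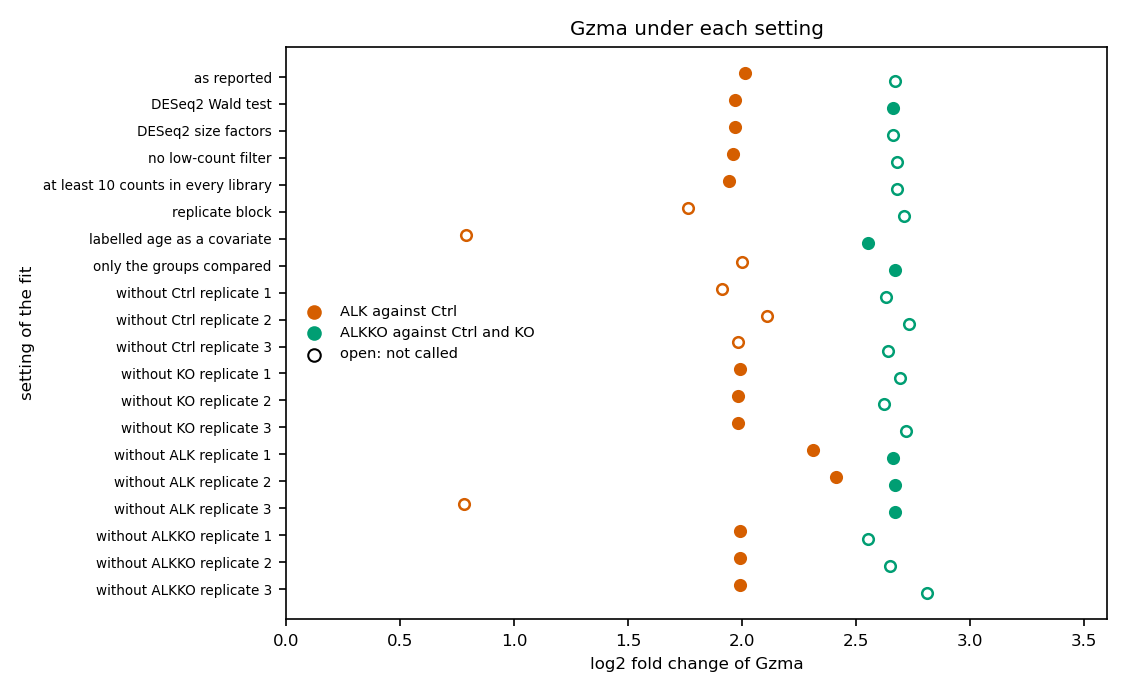
Fitted log2 fold change of Gzma (x axis) under each setting of the fit (y axis) for ALK against Ctrl and for ALKKO against Ctrl and KO together. Filled points pass an adjusted p under 0.05 and a log2 fold change above 1, and open points do not. ALK against Ctrl drops from 2.01 to 0.78 without ALK replicate 3, while ALKKO lies at 2.55 to 2.81 with and without a call.

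Summed over the 10 genes, the level was 142 to 153 CPM in Ctrl, 123 to 336 CPM in KO, 128 to 535 CPM in ALK and 358 to 481 CPM in ALKKO. Gzma made up 29.2% to 41.5% of this sum in Ctrl and 72.4% to 81.0% in ALKKO. The other 9 genes together were at 97.9 ± 13.6 CPM in Ctrl and 93.9 ± 13.2 CPM in ALKKO (SD, n = 3 each), a difference smaller than the spread within either group. In ALK they were at 23.7, 63.1 and 98.6 CPM.

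**Figure D3:**
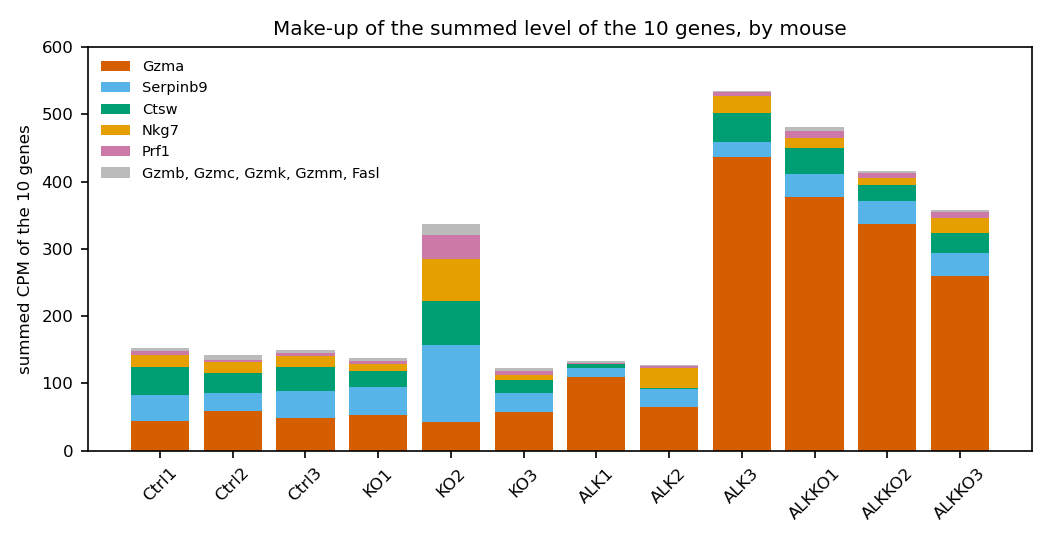
Stacked bars of the CPM of the 10 genes in each of the 12 libraries (y axis, from 0), split into Gzma, Serpinb9, Ctsw, Nkg7, Prf1 and the remaining 5. Gzma makes up most of the bars of ALK3 and ALKKO, whereas the bar of KO2, at 336 CPM, is made mostly of the other genes, with Gzma at 12.8%.

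The remaining granzymes were low. Gzmb, which encodes granzyme B, a protease that cuts after aspartate and activates caspases, lies on chromosome 14 (56258838 to 56262260, minus strand). It was at 1.21, 2.14 and 1.24 CPM in Ctrl and at 0.424, 4.73 and 0.807 CPM in KO. The ALK libraries held 0, 2 and 0 reads of it, and in ALKKO it was at 0.907, 0.418 and 0.51 CPM. Ctrl, ALKKO and ALK did not overlap, in that descending order. Over all genes tested, libraries did not overlap for 17.5% in ALKKO against Ctrl, 43.1% in ALK against ALKKO and 46.3% in ALK against Ctrl. KO2 was the highest of the 12, whereas KO1 and KO3 lay within the range of ALKKO. ALKKO against KO gave a log2 fold change of -1.66 for Gzmb, or 0.0 without KO2, and edgeR called neither. Over the group sums of 86 reads in Ctrl and 2 in ALK, Ctrl was 30-fold higher after scaling by depth, with a 95% interval of 8.06 to 252 that covers counting error only. The edgeR call of Gzmb as lower in ALK (adjusted p = 0.0184) was lost without Ctrl2 (adjusted p = 0.0508), and the fitted log2 value, -4.67 ± 1.24 (SE), rests on libraries at or near 0. ALKKO, with 30 reads in all, was 12-fold higher than ALK (95% counting interval 3.05 to 104), and this difference was not called (edgeR, adjusted p = 0.0701) but was without KO2 (adjusted p = 0.0229). Against Ctrl the log2 fold change in ALKKO was -1.31 ± 0.92 (SE; edgeR, adjusted p = 1).

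Gzmm, which encodes a protease that cuts after methionine and leucine, was at 1.64 to 2.2 CPM in Ctrl, 2.17 to 4.9 CPM in KO, 1.25 to 3.35 CPM in ALK and 1.91 to 1.97 CPM in ALKKO. None of its comparisons was called, and its ALKKO mice were closer together than those of any other group. Gzmk, a granzyme of memory and innate-like T cells, was at most at 0.61 CPM except in KO2, at 3.09 CPM, and ALKKO1, at 2.24 CPM. Gzmc, which lies 24181 bases from Gzmb with no other coding gene between them, was at most at 0.336 CPM except in ALKKO3, at 0.893 CPM from 14 reads. Of its 50-base stretches, 4.1% also occur in transcripts of other genes, which is the largest share among the members, so part of its reads could not be placed uniquely. Of 5 further granzymes of the chromosome 14 cluster, Gzmd and Gzmn had no read in any library, and Gzme, Gzmf and Gzmg were at most at 0.0638 CPM. At this depth those 5 genes lay under the level of 3 counts everywhere.

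Prf1, which encodes perforin, was at 5.6, 3.96 and 4.52 CPM in Ctrl, at 5.29, 35.3 and 4.98 CPM in KO, at 1.27, 1.57 and 6.32 CPM in ALK and at 9.67, 7.35 and 8.23 CPM in ALKKO. ALKKO was above every Ctrl and every ALK mouse, while ALK1 and ALK2 were below and ALK3 was above all Ctrl mice. The log2 fold change was 0.84 ± 0.79 for ALKKO against Ctrl (SE; edgeR, adjusted p = 1), -0.62 ± 0.80 for ALK against Ctrl (adjusted p = 0.59) and -1.46 ± 0.81 for ALK against ALKKO (adjusted p = 0.199). Without ALK3 the last of these was -2.57 and was called (edgeR, adjusted p = 0.0456).

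Nkg7, which encodes a granule membrane protein needed for granule release, was at 17.5, 16.7 and 16.4 CPM in Ctrl and at 15.8, 10.9 and 22.0 CPM in ALKKO. In KO it was at 10.7, 62.6 and 7.66 CPM, and in ALK at 0.201, 30.6 and 24.7 CPM. The tumor ALK1 thus had 3 reads of Nkg7, where the other two were above every Ctrl mouse. Ctsw, which encodes cathepsin W, a cysteine protease of NK and CD8 T cells, divided the tumors in another way. It was at 42.2, 29.1 and 34.8 CPM in Ctrl, at 5.1, 1.57 and 43.5 CPM in ALK, at 23.1, 65.8 and 19.2 CPM in KO and at 38.8, 22.9 and 30.2 CPM in ALKKO. ALK3 was level with the highest Ctrl mouse and ALK1 and ALK2 were below all others. The log2 fold change of Ctsw in ALK was -1.08 ± 0.92 (SE; edgeR, adjusted p = 0.399), but -3.40 without ALK3 and -3.27 with labelled age as a covariate, both of which were called (adjusted p = 0.00572 and 0.0345). Here too these settings are not separate checks, because ALK3 was the oldest mouse. The SD of log2(CPM + 1) within ALK was 2.64 for Nkg7, 2.11 for Ctsw and 1.41 for Gzma, beside a median of 0.353 over all genes tested, and within Ctrl it was 0.0465, 0.26 and 0.2 beside a median of 0.162.

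Fasl, which encodes Fas ligand, lies on chromosome 1 (161780689 to 161788495, minus strand). It was at 2.01, 1.66 and 1.02 CPM in Ctrl, at 0.794, 2.66 and 0.538 CPM in KO and at 0.786, 0.538 and 0.255 CPM in ALKKO. The ALK libraries held 1, 1 and 0 reads of it. As for Gzmb, Ctrl, ALKKO and ALK stood in descending order without overlap, beside the same shares of all genes. KO overlapped both Ctrl and ALKKO. ALKKO against KO gave a log2 fold change of -1.30, or -0.34 without KO2. KO against Ctrl gave -0.25, or -1.21 without KO2, and edgeR called none of these. Ctrl, with 88 reads, was 30.7-fold above ALK with 2 (95% counting interval 8.25 to 257), and ALKKO, with 26 reads, was 10.4-fold above it (2.61 to 90.5). Both differences were called (edgeR, adjusted p = 0.00473 and 0.0313), and the second was lost without any single ALK mouse, ALKKO1 or ALKKO2 (adjusted p = 0.0588 to 0.0902). ALKKO against Ctrl gave a log2 fold change of -1.55 ± 0.70 (SE; edgeR, adjusted p = 1, unadjusted p = 0.0498), and ALKKO against Ctrl and KO gave -1.43 ± 0.64 (adjusted p = 1), or -0.94 without KO2 (adjusted p = 1). The interaction was -3.43 ± 1.17 (SE; edgeR, adjusted p = 0.088), and without KO2 it was -4.43 and was called (adjusted p = 0.0255).

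Serpinb9, which encodes an inhibitor of granzyme B that protects the cell holding it, was at 37.7, 26.9 and 41.0 CPM in Ctrl, at 41.2, 114 and 28.9 CPM in KO and at 33.6, 34.3 and 34.3 CPM in ALKKO. In ALK it was at 13.4, 26.6 and 22.4 CPM. Every ALK mouse was below every Ctrl mouse, but by little in ALK2, and the log2 fold change of -0.76 ± 0.45 (SE) was not called (edgeR, adjusted p = 0.221).

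Over the 8 members tested, ALK against Ctrl gave 3 calls, where 20.4% of all genes tested were called. Gzma was called higher, beside 8.41% of all genes, and Gzmb and Fasl lower, beside 12%. Libraries of ALK and Ctrl did not overlap for 4 of the 8 (these 3 and Serpinb9), beside 46.3% of all genes, which is close to the members' share. The median log2 fold change of the 8 was -0.69, beside 0.05 over all genes. ALK against ALKKO gave 1 call, Fasl, beside 19.6% of all genes, with a median of -0.79 beside 0.03.

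In ALKKO, no member was called by edgeR against Ctrl (0.181% of all genes called), against KO (0.00623%) or against both (0.125%). At an unadjusted p under 0.05, Gzma and Fasl passed against Ctrl (3.18% of all genes), Gzma alone passed against KO (2.69%), and Gzma and Fasl passed against both groups together (2.35%). DESeq2 called Gzma in each of these, where it called 0.611%, 0.15% and 0.511% of all genes. For the interaction edgeR called none of the 8 members (8.93% of all genes), 1 of them, Fasl, had an unadjusted p under 0.05 (27.7%), and DESeq2 called none (15.5%). Without KO2, edgeR called Gzmb (adjusted p = 0.0416) and Fasl in the interaction. The share of all genes called in that fit is not given, so these calls have no background beside them. ALKKO against Ctrl, against KO and against both share the same 3 ALKKO mice, and ALK against Ctrl shares the Ctrl mice, so these counts are not independent of each other.

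**Figure D4:**
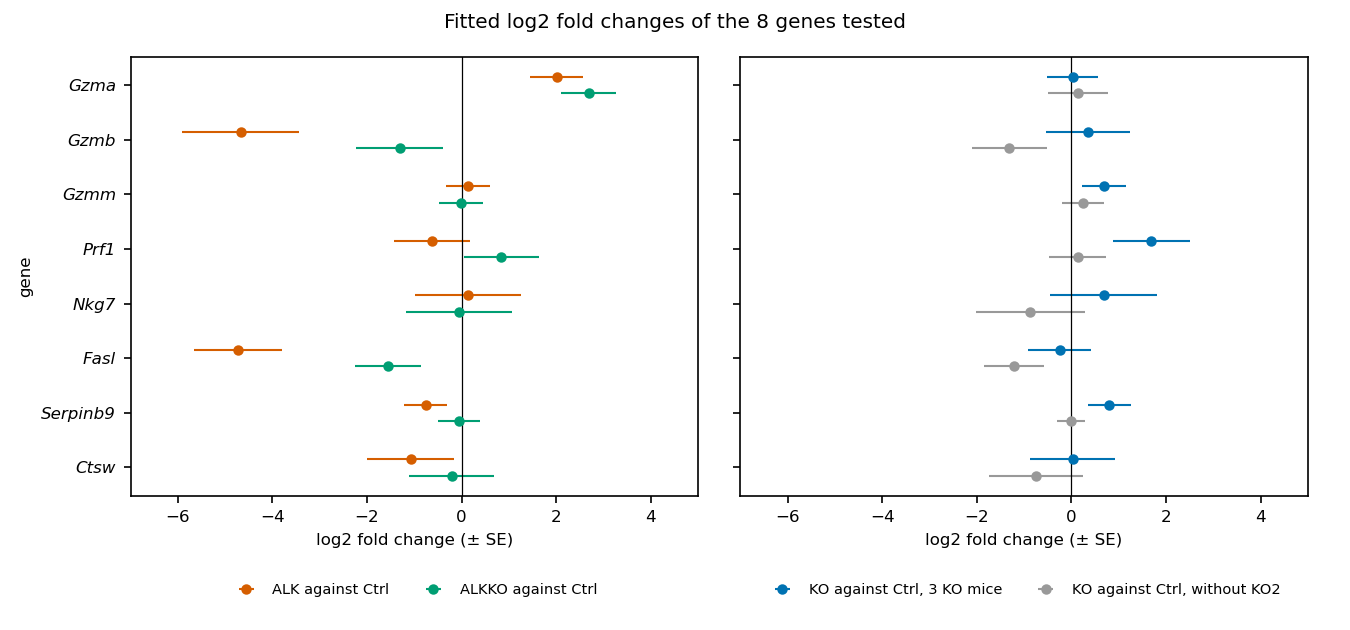
Fitted log2 fold changes with standard errors (x axis) of the 8 genes tested (y axis), for ALK and ALKKO against Ctrl on the left and for KO against Ctrl with all 3 KO mice and without KO2 on the right. Gzma lies at 2.01 and 2.69 on the left, Gzmb and Fasl lie lowest in ALK, and the values of Prf1, Nkg7 and Serpinb9 on the right move toward or below 0 without KO2.

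Deletion of Dnmt1 alone gave no call among the members. In KO against Ctrl edgeR called 0 of the 8 (0.0187% of all genes), none had an unadjusted p under 0.05 (5.52%), and DESeq2 called none (0.262%). DESeq2 gave no adjusted p for Prf1 in this comparison, so it could not call that gene. With all 3 KO mice the median of the 8 was 0.52 on the log2 scale and 7 of the 8 values were above 0, and without KO2 the median was -0.37 and 3 of the 8 were above 0. Prf1 had a log2 fold change of 1.69 ± 0.81 (SE; edgeR, adjusted p = 0.864), and 0.13 without KO2. Serpinb9 went from 0.80 to -0.01, Nkg7 from 0.68 to -0.87 and Gzmb from 0.35 to -1.31 (edgeR, adjusted p = 0.864 to 0.969 with KO2 and 1 without). Gzma did not move with these genes: KO2 had the lowest Gzma level of all 12 libraries.

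The 9 NK-cell markers, such as Ncr1, an activating receptor of NK cells, summed to 100 CPM in KO2, to 15.5 and 21.9 CPM in the other KO mice, to 25.7 to 35.8 CPM in Ctrl, to 19.2 to 28.0 CPM in ALKKO and to 2.48 to 7.26 CPM in ALK. Each of the 9 had at least 1 read in every group. Ncr1 itself was at 9.19 CPM in KO2, at 0.907 to 3.38 CPM in ALKKO, at most at 0.403 CPM in Ctrl, KO1 and KO3, and at 0, 0 and 0.078 CPM in ALK. The 6 markers of invariant NKT and other innate-like T cells summed to 237 CPM in KO2, 50.1 to 94.1 CPM in the other Ctrl, KO and ALKKO mice and 2.44 to 19.6 CPM in ALK. Among them, Tbx21 was at 14.3 CPM in ALK1, above its 4.36 to 5.91 CPM in Ctrl. In ALK2 and ALK3 Tbx21 was at 0.0871 and 0.468 CPM. The 10 markers of mature CD8 T cells, several of which most thymocytes also express, summed to 3120 CPM in KO2, 3870 to 5300 CPM in the other Ctrl, KO and ALKKO mice and 621 to 1870 CPM in ALK. The 7 gamma-delta T-cell markers summed to 20.3, 21.2 and 241 CPM in ALK1, ALK2 and ALK3 and to 257 to 460 CPM elsewhere. In ALK3 nearly all of this sum was Trdc (203 CPM) and Sox13 (35.9 CPM). Tcrg-C1, Tcrg-C2, Tcrg-C4, Blk and Cd163l1 were at 0.078 to 1.09 CPM in ALK3, against 8.57 to 58.8 CPM in Ctrl. Thus KO2 was high and ALK low in the sums of NK and innate-like markers, as they were in Gzmb and Fasl. The part of such cells in those results was not tested. In Gzma the 12 libraries stood in another order, since ALK and ALKKO were above KO2 with fewer NK markers.

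**Figure D5:**
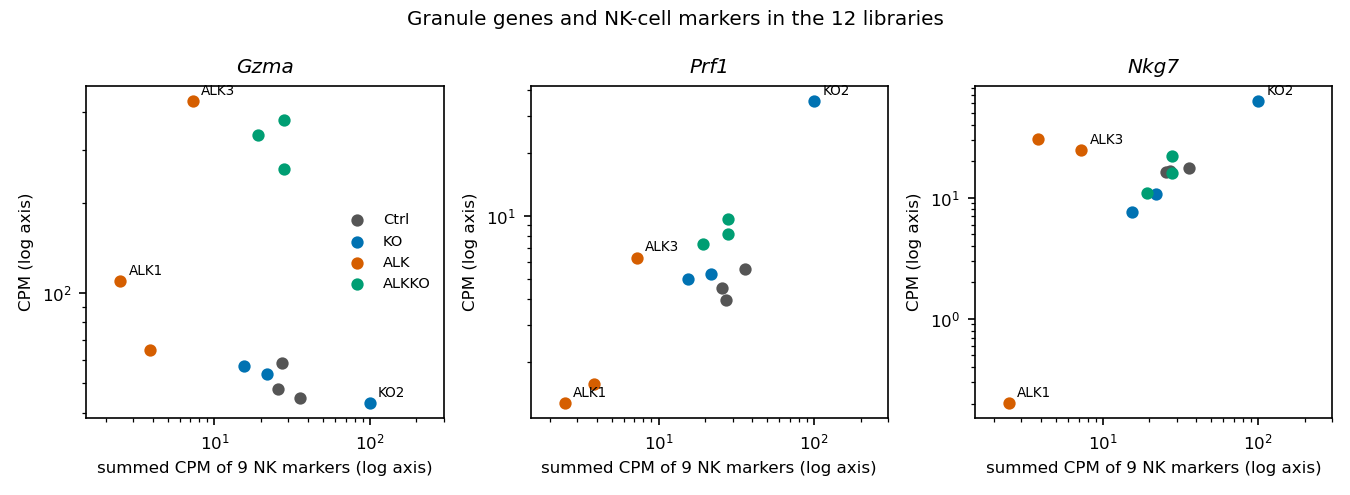
CPM of Gzma, Prf1 and Nkg7 (y axes, logarithmic) against the summed CPM of 9 NK-cell markers (x axes, logarithmic) in the 12 libraries, colored by group. KO2, at 100 CPM of NK markers, is highest for Prf1 and Nkg7 and lowest for Gzma, and the ALK libraries are at the left, at 2.48 to 7.26 CPM.

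ALK3, the tumor with the highest Gzma, Prf1 and Ctsw, also differed from ALK1 and ALK2 in markers of macrophages and thymic epithelium and in Trac. Whether its Trac reads came from tumor cells or other T cells was not tested. Its macrophage markers summed to 1150 CPM beside 514 and 408 CPM, its thymic epithelium markers to 155 CPM beside 3.62 and 68.5 CPM, and Trac, the constant gene of the T-cell receptor alpha chain, was at 298 CPM beside 5.84 and 6.53 CPM. The part of these in its granule gene levels was not tested. Thymic epithelium markers were at 404 to 660 CPM in Ctrl, ALKKO, KO1 and KO3 and at 70.1 CPM in KO2. Markers of 5 further types were summed, and ALK was lower in most: dendritic cells had 6.44 to 30.3 CPM in ALK, 49.5 to 107 CPM elsewhere and 244 CPM in KO2, and B cells had 2.26 to 8.74 CPM in ALK. Granulocytes had 0.201 to 5.46 CPM in ALK, 4.66 to 32.5 CPM elsewhere and 80.8 CPM in KO2, mast cells and basophils had at most 30.2 CPM anywhere, and erythroid cells ranged from 22.3 to 1990 CPM without following the groups. The T-lineage markers summed to 4070 to 5060 CPM in ALK, 3430 CPM in KO2 and 6260 to 9140 CPM elsewhere.

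Per kilobase of exon, Gzma led in all 4 groups, at 50.1 ± 7.27 CPM per kilobase in Ctrl and 323 ± 59.4 in ALKKO (SD, n = 3). In Ctrl it was followed by Ctsw (18.8 ± 3.47) and Nkg7 (18.5 ± 0.635), which did not differ beyond their spread, then Serpinb9 (10.1 ± 2.11), Prf1 (1.82 ± 0.321), Gzmm (1.33 ± 0.197) and Gzmb (1.07 ± 0.368), and the last pair lay within their spread. Fasl (0.807 ± 0.257) overlapped Gzmb, and Gzmc (0.259) and Gzmk (0.153) were last. In ALKKO the order of the first 6 was the same except that Nkg7 (17.8 ± 6.07) and Ctsw (16.2 ± 4.23), again within their spread, changed places.

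Lists of other genes of granule biology are set beside the share of all genes called in ALK against Ctrl, which was 20.4%, with 8.41% higher and 12% lower, and a median log2 fold change of 0.05. Against ALKKO these were 19.6% and 0.03. Of 9 tested genes of the granule matrix and of granzyme processing, 2 were called lower in ALK than in Ctrl and none higher, with a median log2 fold change of -0.19, a share near that of all genes. Ctsl, a lysosomal cysteine protease, was at 298 ± 254 CPM in ALK and 1780 ± 327 CPM in Ctrl (SD, n = 3). Srgn, which encodes serglycin, the proteoglycan that packs granzymes in the granule, was at 51.9, 26.4 and 22.6 CPM in ALK and at 110, 95.1 and 104 CPM in Ctrl, and its log2 fold change was -1.61 ± 0.39 (SE; edgeR, adjusted p = 0.0119). Srgn was also lower in ALK than in ALKKO (-1.85 ± 0.39, adjusted p = 0.00693), where it was 1 of 9 called. Ctsc, whose product cathepsin C activates granzymes, was at 58.2, 153 and 154 CPM in ALK and at 110 to 120 CPM in Ctrl.

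Of 17 tested genes of granule biogenesis and exocytosis, 1 was called higher and 1 lower in ALK than in Ctrl (median -0.35), a smaller share than that of all genes. Sytl2, a RAB27A effector in granule docking, was at 709 and 700 CPM in ALK2 and ALK3 but at 0.604 CPM in ALK1, against 9.91 to 15.3 CPM in Ctrl, so the call (log2 fold change 5.19 ± 1.45, SE; edgeR, adjusted p = 0.0228) covers tumors that moved in opposite directions. Stx11, a syntaxin needed for granule fusion, was at 3.46 ± 3.41 CPM in ALK and 24.2 ± 3.02 CPM in Ctrl (SD, n = 3; edgeR, adjusted p = 0.0088). Against ALKKO, 1 was higher (Sytl2) and 2 lower, Stx11 and Rab27a, a GTPase that docks granules (-1.26 ± 0.22, SE; adjusted p = 0.00299). Rab27a was also called in the interaction (-1.38 ± 0.31, SE, edgeR adjusted p = 0.0225). This value includes KO2, at 75.9 CPM beside 104 and 84.9 CPM in KO1 and KO3.

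Of 11 tested genes among other death ligands, receptors and effector cytokines, 3 were called lower in ALK than in Ctrl, and the same 3 lower than in ALKKO. They were Ccl5, a chemokine stored with granules in CD8 T cells (0.604, 0.435 and 1.64 CPM in ALK and 24.3 to 40.0 CPM in Ctrl), Xcl1, a chemokine of NK and CD8 cells (log2 fold change -2.64 ± 0.64 against Ctrl), and Fas, the receptor of Fas ligand (7.72, 13.6 and 46.5 CPM in ALK and 77.7 to 98 CPM in Ctrl). The edgeR adjusted p-values against Ctrl were 0.00318, 0.0124 and 0.0175. Ligand and receptor of the Fas route were therefore both lower in ALK. Ifng was at most at 0.773 CPM in any library and was not tested.

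Of 21 transcription factors linked to the cytotoxic program, 7 were called lower and 1 higher in ALK than in Ctrl (median -0.38). The lower ones included Eomes, a T-box factor that drives Prf1 and Gzmb in CD8 T and NK cells (0.0671 to 0.0871 CPM against 0.643 to 1.85 CPM), Runx3, a factor of the CD8 lineage (6.18 ± 4.53 against 26.3 ± 4.52 CPM, SD, n = 3; edgeR, adjusted p = 0.0318), and Bcl6 and Bach2, repressors of effector fate (-3.19 ± 0.35 and -2.11 ± 0.47, SE; adjusted p = 0.000417 and 0.00844). Against ALKKO, 6 were lower and 2 higher, among them Hopx, a homeodomain protein of effector T cells (3.04 ± 1.03, SE; edgeR, adjusted p = 0.0497). Hopx was at 1.27, 38.5 and 40.0 CPM in ALK and at 2.68 to 4.18 CPM in ALKKO, so ALK1 lay on the other side. None of the 58 genes tested in these 4 lists was called by edgeR in any ALKKO comparison with Ctrl or KO, or in KO against Ctrl. This is near the shares of all genes called. They were 0.181% for ALKKO against Ctrl, 0.00623% against KO, 0.125% against both and 0.0187% for KO against Ctrl. In the interaction Rab27a and 2 transcription factors were called, beside 8.93% of all genes. Bcl6 was among them (-3.30 ± 0.47, SE, edgeR adjusted p = 0.00427). Its value includes KO2, at 144 CPM beside 220 and 200 CPM in KO1 and KO3. Without KO2 or without ALK3 the counts of these lists in ALK against Ctrl and against ALKKO changed by at most 2 genes, the most in relation to its size being the granule matrix list against ALKKO, with 2 and 3 lower in place of 1, and the higher transcription factors against ALKKO, with 1 in place of 2.

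The genes whose log2(CPM + 1) over the 12 libraries was most like that of Gzma were Clec11a (Pearson r = 0.938), Flot1 (0.924) and Anxa11 (0.889), none of which was on a list used here. Those most like Gzmb were Klre1, an NK receptor (0.953), Samd3 (0.948) and the immunoglobulin segment Igkv4-80 (0.945), and those most like Fasl were Igkv8-30 (0.964), Klre1 (0.956) and Atp6v0b (0.949). Prf1 went with Fgd2, Fes and Cybb (0.975 each), which are known from myeloid cells. KO2 was the highest library in all 3, for Cybb at 258 CPM beside at most 57.1 CPM elsewhere, and without KO2 the correlations were 0.944 to 0.945. Ctsw was most like Pdlim2 (0.976), Mthfsl (0.974) and Itgb7 (0.967), Nkg7 most like AI987944 (0.965), Fli1 (0.96) and Fam3c (0.955), Serpinb9 most like Tfeb (0.96), Arhgap17 (0.958) and Usp12 (0.958), and Gzmm most like Pcdh17 (0.943), Pkig (0.94) and Rubcn (0.936). Among the members, Gzmb and Fasl had the highest correlation of any pair (r = 0.919, and 0.899 without KO2). That of Gzma with Fasl was the lowest over the 12 libraries (-0.566, and -0.503 without KO2). Without KO2 the lowest was that of Gzmm with Nkg7 (-0.858, and -0.116 with KO2). These correlations are descriptions over 12 libraries that share the groups and KO2, and the highest of 16052 genes is always high.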

How the data were processed

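The authors prepared stranded poly(A) libraries from homogenized tissue, sequenced single 50 nt reads, trimmed them, aligned them to mm10 with STAR and deposited raw HTSeq counts per gene, without normalization. The versions of these tools, the annotation release and the strand setting of the counting are not given in the sources used here; Picard 2.19.2 is named in the submitters' processing notes without a role. Reads aligned to several places (39.24% to 51.84% of each library, most in ALK) or to several genes (1.38% to 2.83%) are in no gene's count.

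IDs were matched to GENCODE M21 on GRCm38 (50376 of 50600). In R 4.3.3, edgeR 4.0.16 was run with TMM, filterByExpr, 1 term per group over all 12 libraries, glmQLFit (robust) and glmQLFTest, with Benjamini-Hochberg adjustment over 16052 genes, and a gene was called where the adjusted p was under 0.05 with a log2 fold change beyond 1 either way. SEs divide the log2 fold change by the root of F. DESeq2 1.42.0, other normalizations and filters, labelled age, the replicate number, fits of only the groups compared and fits without each library were alternatives. Python 3.11.15 and scipy 1.17.1 gave levels and exact permutation tests of CPM. All libraries within a group differed by more than sampling noise. The replicate number was left out of the main fit and served as a block in an alternative. Deviations correlated above 0.1 in 5 of 18 same-numbered pairs, with r from -0.106 to 0.426. In the 36 other pairs r was -0.457 to 0.208. On simulated counts edgeR recovered 50% of 200 genes changed 4-fold in ALK against Ctrl with 5 other calls among 15842 genes.

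The members, gene lists and motifs were chosen with earlier results of these data known. Named are all 10 members, called genes of the pathway lists with the largest change (up to 4 a list and comparison, mean of at least 1 CPM), and for each tested member the 3 most correlated genes. Ctsc, Ifng, Ncr1, Trac and other markers were named after their values were seen. Vamp7 had no match by symbol. Counting intervals cover counting error only.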

Additional observations from a re-analysis of the deposited data

How the results depend on the processing

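Depth limited Gzmb, Gzmc, Gzmk and Fasl, with at most 55 reads in any library, and 3 mice per group limited the exact tests. In ALK against Ctrl, 3 members were called, 1 (Gzma) with at least 10 counts required in every library, which removes Gzmb and Fasl from the test, and 1 to 3 when single libraries were left out. In ALK against ALKKO, 1 member was called, and 2 (Gzmb and Fasl) with DESeq2. The count was 0 with at least 10 counts in every library and 0 with only the groups compared. Both of those settings removed Gzmb and Fasl from the test for low counts, so neither gene could be called there. It was 3 (Gzma, Fasl and Ctsw) with labelled age, and 0 to 3 with a library left out. In ALKKO against Ctrl none was called, but 1 (Gzma) with DESeq2 and with only the groups compared, and 0 to 1 with a library left out. In ALKKO against KO none was called, but 1 (Gzma) with DESeq2, and 0 to 1 with a library left out. In ALKKO against Ctrl and KO none was called, but 1 (Gzma) with DESeq2, with age and with only the groups compared, and 0 to 1 with a library left out. In the interaction none was called, and 0 to 2 with a library left out (Gzmb and Fasl without KO2, Gzma and Ctsw without ALK3). Leaving out a library also changed the genes that passed the filter, 16542 to 16654 in place of 16052. The cause of these changes was not tested. The age setting and the fits without ALK3 are not separate checks, since ALK3 was the oldest mouse. DESeq2 gave Prf1 no adjusted p in ALK, KO or ALKKO against Ctrl, or in ALK against ALKKO. Apart from DESeq2, shares of all genes called in the alternative fits are not given, so their counts have no background beside them.

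With the replicate number as a block, ALK against ALKKO gave 2 calls (Gzmb with adjusted p = 0.0476, and Fasl), the Gzma call in ALK against Ctrl was lost (log2 fold change 1.76, edgeR adjusted p = 0.0564), and 2 values of KO against Ctrl changed sign, Gzma to -0.02 and Gzmb to -0.10. Without the low-count filter the KO value of Gzma was -0.00. With a library left out, KO against Ctrl ranged from -0.08 to 0.14 for Gzma, from -1.31 to 0.83 for Gzmb, from -1.21 to 0.11 for Fasl, from -0.87 to 1.10 for Nkg7 and from -0.01 to 1.12 for Serpinb9 on the log2 scale. Plain CPM without TMM factors moved 4 of 120 single levels by more than the group's SD (Gzmm and Serpinb9 in ALKKO1 and ALKKO3), and no summed level.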
